A study of Mus musculus with 6 samples.

Results

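Expression of the 8 milk protein genes (Csn1s1, Csn1s2a, Csn1s2b, Csn2, Csn3, Wap, Lalba and Glycam1) was examined by RNAseq in mammary tumors from NeuT/ATTAC mice. The genes were taken by symbol from the mouse annotation, and all 8 were found among the 54532 gene IDs measured. The comparison was of 3 tumor libraries from IgG-treated and 3 from anti-PD-1-treated mice. In MMTV-NeuT mice of the FVB strain, Erbb2 is driven by the MMTV promoter, which is active in mammary epithelium and is itself responsive to hormones. These mice had been crossed with FAT-ATTAC mice, brought from C57BL/6 onto FVB, in which the compound AP20187 ablates adipose tissue and leads to mammary fibrosis. All tumors, controls included, came from mice carrying both transgenes and given 0.4 mg/kg AP20187 from 6 weeks of age (biweekly by the sample labels, triweekly by the methods of the study). From 8 weeks of age the mice received 100 μg of an anti-PD-1 mAb or of isotype-matched IgG 2 times weekly. By a figure legend of the study, RNA was pooled within a group before sequencing, but the labels give 3 numbered tumor samples a group with a table each. They are called tumors here, and whether each is a single tumor is not stated. Tumors without fibrosis and normal or lactating mammary gland were not analysed here.

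Milk proteins are made by the alveolar cells of the mammary gland in late pregnancy and lactation. Prolactin, through its receptor and Jak2, activates Stat5, which works with the glucocorticoid receptor, Elf5 and NFI factors to turn on the casein and whey genes. The caseins (Csn1s1, Csn1s2a, Csn1s2b, Csn2 and Csn3) are the calcium-carrying proteins of milk and lie in 1 cluster, whereas Wap and Lalba encode whey proteins. Mouse mammary tumors driven by Erbb2 arise in the luminal lineage and often keep part of this program. Csn3 is also known in luminal progenitors, so that a milk protein transcript alone does not mark a secretory cell. In bulk tumors, fewer cells of a type and less RNA per cell cannot be told apart.

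The promoters of 4 genes are shown, 3 that hold a match to the palindrome TTCNNNGAA, the core of the Stat5 recognition sequence (Csn1s1, Csn2 and Glycam1), and Lalba, 1 of the genes that do not. Whether a match goes with the expression values was not tested. Each sequence holds the 250 bases before the RefSeq transcription start on GRCm38.p6, 5′ to 3′ on the strand of the gene, with the match in capitals. Csn1s1 is at chr5:87665958-87666207 on the plus strand, Csn2 at chr5:87699426-87699675, Glycam1 at chr15:103565082-103565331 and Lalba at chr15:98482684-98482933, the last 3 on the minus strand.
Csn1s1: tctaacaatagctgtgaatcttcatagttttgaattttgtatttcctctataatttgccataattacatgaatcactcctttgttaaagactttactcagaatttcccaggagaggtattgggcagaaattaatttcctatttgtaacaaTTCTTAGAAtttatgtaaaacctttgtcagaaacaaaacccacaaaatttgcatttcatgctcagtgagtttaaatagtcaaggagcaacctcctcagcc
Csn2: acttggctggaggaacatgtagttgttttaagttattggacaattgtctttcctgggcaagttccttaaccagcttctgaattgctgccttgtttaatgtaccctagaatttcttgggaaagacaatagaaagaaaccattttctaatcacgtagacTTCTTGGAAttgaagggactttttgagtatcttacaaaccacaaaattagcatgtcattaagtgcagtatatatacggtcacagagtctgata
Glycam1: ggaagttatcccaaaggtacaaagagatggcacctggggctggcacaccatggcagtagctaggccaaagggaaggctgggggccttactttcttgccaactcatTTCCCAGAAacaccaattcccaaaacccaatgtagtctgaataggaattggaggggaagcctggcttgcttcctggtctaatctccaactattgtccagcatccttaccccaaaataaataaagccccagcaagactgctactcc
Lalba: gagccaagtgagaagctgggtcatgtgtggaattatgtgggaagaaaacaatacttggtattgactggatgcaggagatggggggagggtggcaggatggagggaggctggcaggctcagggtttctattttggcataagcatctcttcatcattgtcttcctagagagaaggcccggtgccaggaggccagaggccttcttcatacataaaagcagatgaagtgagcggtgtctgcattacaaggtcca

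The match lay 100 to 92 bases before the start in Csn1s1, 93 to 85 bases before it in Csn2 and 145 to 137 bases before it in Glycam1. The palindrome reads the same on both strands, so each match was counted once. Of the 8 genes, 6 had a RefSeq window, and Csn1s2a, Wap and Lalba held no match within it. Among all 32851 windows of the same length, 7.02% held a match. A match describes these letters and is not evidence that Stat5 was bound, and the lack of one in a window says nothing of Stat5 at that gene. Csn3 and Csn1s2b were not in the RefSeq table.

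Expression is given as FPKM, the fragments on a gene scaled by the length of its exons and by the sequencing depth of the library. The FPKM values could be turned back into whole reads for all 8 genes, and the recovered reads on genes came to between 21075641 and 23852764 per tumor. A gene with 2 kb of exons and 3 reads would have 0.0586 to 0.0682 FPKM here, and only Csn1s2b, Wap and Glycam1 came near the limit of detection in some tumors. The tumors correlated with each other at r = 0.943 to 0.977 over genes, which are not independent, and their median-of-ratios factors were 1.00 to 1.01. Epcam, a marker of epithelium, was at 683 to 1142 FPKM and Krt8, a luminal keratin, at 426 to 1035 FPKM, so that epithelium was present in every library. Adipocyte markers were low, with a summed level of 10 genes of 6.98 to 19.3 FPKM, led by Car3 (0.321 to 11.2 FPKM) and Fabp4 (1.34 to 5.63 FPKM), and none of the 4 tested had an unadjusted p under 0.05 and a 1.5-fold difference between groups, which 8.43% of all tested genes met.

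Together the 8 genes took 1.495%, 3.05% and 0.897% of the recovered reads in IgG tumors 1, 2 and 3. In anti-PD-1 tumors 1, 2 and 3 they took 1.18%, 0.808% and 1.48%. IgG tumor 2 was the highest, and the ranges of the groups overlapped. The recovered reads are those of genes with whole reads in every tumor, so the shares depend on that total. On it, the exact (Clopper-Pearson) 95% binomial interval of each share was at most 0.0138 percentage points wide and covers counting error only. Every difference between tumors exceeded this width, but close shares, such as those of IgG tumor 1 and anti-PD-1 tumor 3, may not differ on another total. Csn3 supplied 78.1% to 93.4% of these reads in every tumor. The other 7 genes together took 0.0918% to 0.667% of the reads, again most in IgG tumor 2.

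**Figure D1:**
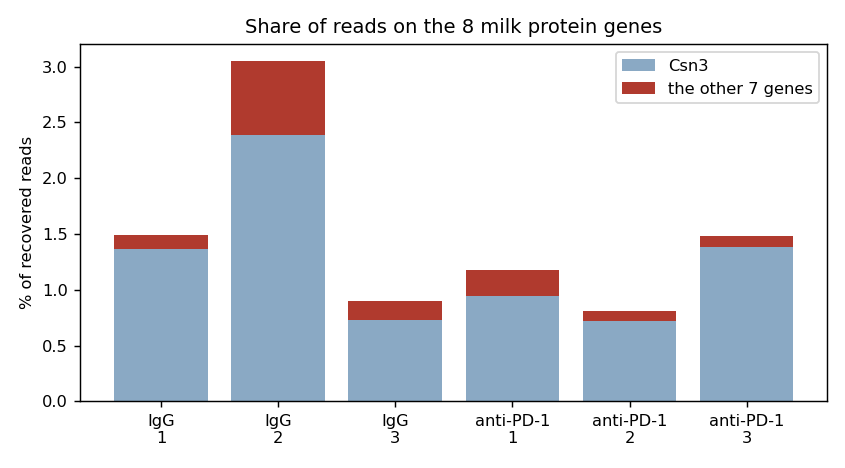
Percent of the recovered reads (y axis) on the 8 milk protein genes in each of the 6 tumors (x axis), with Csn3 in blue and the other 7 genes stacked on it in red. IgG tumor 2 had the highest share, 3.05%, and Csn3 made up at least 78.1% of the milk protein reads in each tumor.

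Csn3 (ENSMUSG00000001622, chromosome 5, 87925579 to 87932665, plus strand) encodes kappa-casein, which coats and stabilizes the casein micelle. It was at 3116, 5636 and 1578 FPKM in IgG tumors 1, 2 and 3 and at 2124, 1620 and 3197 FPKM in anti-PD-1 tumors 1, 2 and 3. The groups overlapped, with IgG tumor 2 highest and IgG tumor 3 lowest. The log2 fold change of anti-PD-1 against IgG was -0.44 (SE 0.51, adjusted p = 0.749 by limma), and -0.17 after quantile normalization. The noncoding gene 1700066N21Rik overlaps Csn3 on the opposite strand, and reads of the pair were not separated here.

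Csn2 (ENSMUSG00000063157, chromosome 5, 87692624 to 87699630, minus strand), beta-casein, is a classic target of prolactin and Stat5. IgG tumors 1, 2 and 3 had 43.4, 375 and 20.1 FPKM and anti-PD-1 tumors 1, 2 and 3 had 136, 18.5 and 5.06 FPKM. IgG tumor 2 and anti-PD-1 tumor 1 stood above the other 4 tumors, and the groups overlapped. Between its highest and lowest tumor Csn2 differed 74.1-fold, the widest range among the 6 members with over 3 reads in every tumor. The difference between groups was -1.48 (log2, SE 1.35, 95% interval -4.66 to 1.70, adjusted p = 0.674 by limma). Its palindrome-bearing promoter is printed above.

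Csn1s1 (ENSMUSG00000070702, chromosome 5, 87666208 to 87682578, plus strand) encodes alpha-S1-casein. Its level was 86.0, 259 and 32.2 FPKM in IgG tumors 1, 2 and 3 and 64.6, 84.2 and 38.2 FPKM in anti-PD-1 tumors 1, 2 and 3. IgG tumor 2 was again highest, but here IgG tumor 1 and anti-PD-1 tumor 2 came next, and the anti-PD-1 values lay within the range of the IgG values. The log2 fold change was -0.59 (SE 0.70, adjusted p = 0.756 by limma).

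Csn1s2a (ENSMUSG00000061937, chromosome 5, 87774567 to 87788797, plus strand), an alpha-S2-like casein, was at 81.5, 461 and 51.8 FPKM in IgG tumors 1, 2 and 3. In anti-PD-1 tumors 1, 2 and 3 it was at 209, 52.6 and 62.0 FPKM. As for Csn2, IgG tumor 2 and anti-PD-1 tumor 1 were the highest pair and the groups overlapped (log2 fold change -0.50, SE 0.86, adjusted p = 0.841 by limma). Its neighbor Csn1s2b (ENSMUSG00000061388, chromosome 5, 87808082 to 87824426, plus strand) was the lowest of the 8 genes, at 0.254, 2.06 and 0.848 FPKM in the IgG tumors and 2.78, 0.00962 and 0.0491 FPKM in the anti-PD-1 tumors. These values rested on 24, 212 and 89 reads and on 304, 1 and 5 reads. The same pair of tumors was highest, with anti-PD-1 tumor 1 first, and the groups overlapped (log2 fold change -0.27, SE 0.57, adjusted p = 0.870 by limma). At so low a level the size depended on the scale, with -1.31 when 0.1 in place of 1 was added to the FPKM and -2.55 with voom on the recovered reads (adjusted p = 0.716 and 0.544 by limma).

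Wap (ENSMUSG00000000381, chromosome 11, 6635482 to 6638637, minus strand), whey acidic protein, is a marker of late alveolar differentiation. It was at 1.43, 16.8 and 0.604 FPKM in IgG tumors 1, 2 and 3 (32, 410 and 15 reads) and at 10.5, 0.325 and 0.332 FPKM in anti-PD-1 tumors 1, 2 and 3 (272, 8 and 8 reads). IgG tumor 2 and anti-PD-1 tumor 1 were far above the other 4 tumors, and the range was 51.7-fold. The group difference was -0.59 (log2, SE 1.12, adjusted p = 0.856 by limma), and it was -1.07 with 0.1 added to the FPKM and -1.15 with voom.

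Glycam1 (ENSMUSG00000022491, chromosome 15, 103562759 to 103565081, minus strand) encodes a mucin-like milk protein that is also made by high endothelial venules of lymph nodes. In the IgG tumors it was at 0.676, 13.5 and 0.0951 FPKM (32, 698 and 5 reads), and in the anti-PD-1 tumors at 4.46, 0.211 and 0.0196 FPKM (244, 11 and 1 reads). It followed Wap, with IgG tumor 2 first and anti-PD-1 tumor 1 second, and the groups overlapped (log2 fold change -0.66, SE 1.05, adjusted p = 0.823 by limma, and -1.20 with 0.1 added to the FPKM and -1.63 with voom). The markers that define high endothelial venules were at or near 0: Madcam1 and Chst4 had no read in IgG tumors 1, 2 and 3 or in anti-PD-1 tumor 1, and at most 2 reads in the others. In IgG tumor 2, where Glycam1 was highest, the B cell gene Cd79a had 49 reads, against at most 18 elsewhere. The summed level of the 11 lymph node and high endothelial venule genes measured was 0.394 to 3.28 FPKM in IgG and 0.288 to 0.899 FPKM in anti-PD-1 tumors, and none passed the filter on low FPKM. The part of lymph node in the Glycam1 values was not tested.

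Lalba (ENSMUSG00000022991, chromosome 15, 98480400 to 98482721, minus strand) encodes alpha-lactalbumin, the regulatory subunit of lactose synthase. Its order of tumors was not that of the caseins. Its level was 175, 858 and 1226 FPKM in IgG tumors 1, 2 and 3 and 76.9, 30.02 and 574 FPKM in anti-PD-1 tumors 1, 2 and 3. IgG tumor 3, the lowest tumor for Csn1s1, Csn1s2a and Csn3, was the highest for Lalba, and anti-PD-1 tumor 3, the lowest for Csn2 and Glycam1, came next after IgG tumors 3 and 2. The groups overlapped, since anti-PD-1 tumor 3 exceeded IgG tumor 1. The group difference was -2.35 (log2, SE 1.14, 95% interval -5.03 to 0.32, unadjusted p = 0.0760, adjusted p = 0.440 by limma). On this scale with all 6 tumors it was the largest of the 8, but Csn1s2b exceeded it with voom (-2.55 against -2.37), and Csn2 did so without anti-PD-1 tumor 1 (-2.70 against -2.09) or IgG tumor 3 (-2.35 against -1.80). Per length, the ratio of Lalba to Csn2 was 4.04, 2.29 and 61.1 in the IgG tumors and 0.566, 1.62 and 113 in the anti-PD-1 tumors, on the merged exon length. On the principal transcript length it was 11.7 in IgG tumor 3, 21.8 in anti-PD-1 tumor 3 and 0.109 to 0.775 in the other 4, so that the same 2 tumors were high on both lengths, while Lalba exceeded Csn2 in IgG tumors 1 and 2 and anti-PD-1 tumor 2 on the merged length only and was below it in anti-PD-1 tumor 1 on both.

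**Figure D2:**
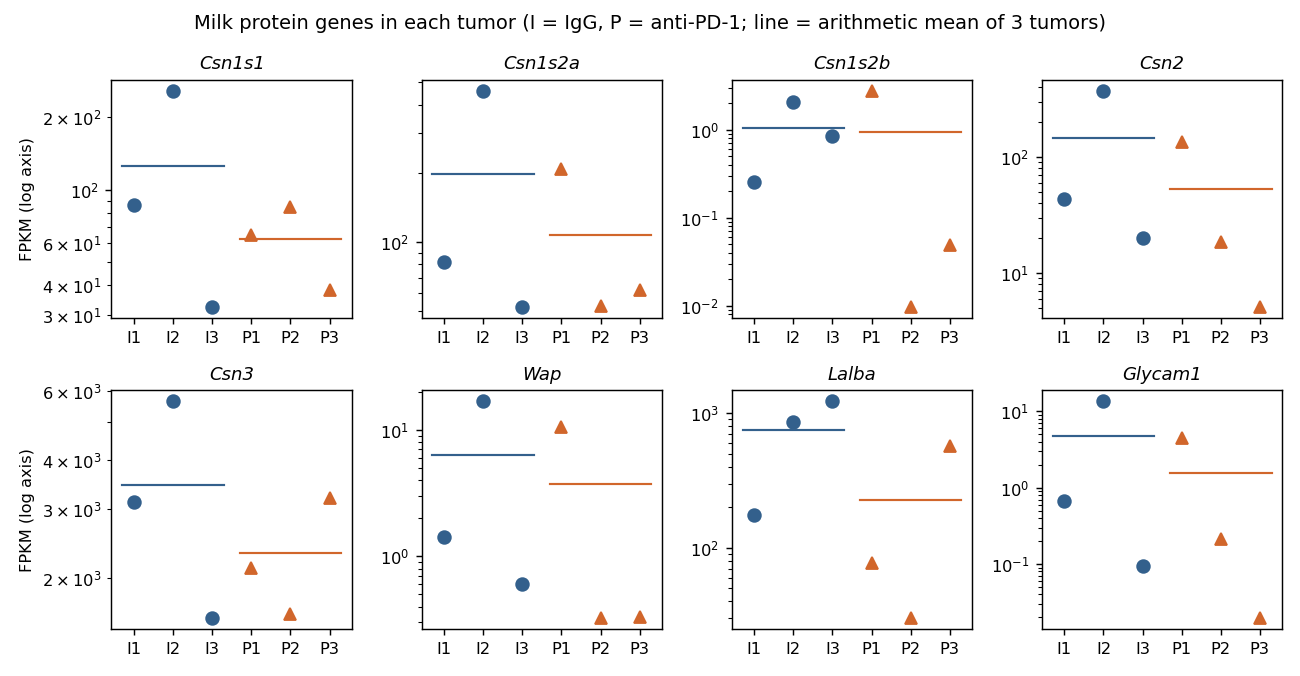
FPKM (y axis, log scale with its own range in each panel) of each milk protein gene in IgG tumors 1 to 3 (blue circles) and anti-PD-1 tumors 1 to 3 (orange triangles), with the arithmetic mean of each group as a line. IgG tumor 2 and anti-PD-1 tumor 1 were the highest pair for 5 of the 8 genes, whereas Lalba was highest in IgG tumor 3 at 1226 FPKM.

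Of the 8 genes, 6 were highest in IgG tumor 2, and for 5 (Csn1s2a, Csn1s2b, Csn2, Wap and Glycam1) IgG tumor 2 and anti-PD-1 tumor 1 were the highest pair. The spread over the 6 tumors was wide for all 8. The SD of log2(FPKM + 1) was 2.14 for Csn2, 2.10 for Lalba, 1.67 for Wap and 1.56 for Glycam1, against a median of 0.30 over the 15069 genes tested. An SD at least as large as that of Csn2 was found in 0.212% of the tested genes, and for Csn3, the least variable of the 8 with an SD of 0.70, in 9.29%. The ranking on SD describes these tumors and was not tested.

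The order of levels among the genes depended on the exon length used. On the merged exon length that the deposited FPKM follows, the mean over the 6 tumors was 2879 FPKM for Csn3, 490.0 for Lalba, 153 for Csn1s2a, 99.6 for Csn2, 94.0 for Csn1s1, 5.01 for Wap, 3.17 for Glycam1 and 1.00 for Csn1s2b. Merged exons can include retained introns and alternative ends, such as 6926 bp for Csn2, whose principal transcript has 1329 bp. On the principal transcript length, Csn3 was still first at 12060.0 FPKM and Csn1s2b last at 5.26 FPKM. Between them, Csn1s2a (583 FPKM), Csn2 (519 FPKM), Lalba (490.0 FPKM) and Csn1s1 (416 FPKM) changed order, and Glycam1 (10.8 FPKM) passed Wap (9.16 FPKM). On this scale the ranges over tumors of these 4 genes overlapped (197 to 1754 FPKM for Csn1s2a, 26.4 to 1954 for Csn2, 30.02 to 1226 for Lalba and 143 to 1146 for Csn1s1), so that neighbors in the order did not differ beyond their spread. The length of a gene is the same in every tumor, so ratios of FPKM between tumors do not depend on it, but log2(FPKM + 1) of low genes does, and the group differences were not recomputed on the principal length.

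The question of the design was whether anti-PD-1 altered expression in these tumors, and for none of the milk protein genes did the difference pass the main test. With the replicate number as a block, Lalba alone met the unadjusted thresholds (unadjusted p = 0.0251, adjusted p = 0.411 by limma). The mean log2(FPKM + 1) of each of the 8 was lower in the anti-PD-1 group, with a median difference of -0.59, against 0.01 for all 15069 genes tested, of which 49.2% were lower. On chromosomes 5, 11 and 15, where the 8 genes lie, 41.1%, 42.7% and 28.9% of the tested genes were lower. The 8 genes share tumors and much of their pattern, so they are not 8 separate observations. None met the p and fold thresholds used here for a lower level (unadjusted p under 0.05 and at least 1.5-fold, after the study, whose further limit on a raw score was not applied), which 4.53% of all tested genes met. None met them for a higher level (3.90% of all genes, and 8.43% in either direction). None had groups that did not overlap, which held for 18.1% of all genes, 8.75% lower and 9.30% higher in anti-PD-1. In limma the adjusted p-values of the 8 ran from 0.440 to 0.870, and an unadjusted p under 0.05 was found for 0 of the 8, with 0 of the 8 also called with voom on the recovered reads. No gene in the whole table had an adjusted p under 0.05, although 12.3% had an unadjusted p under it. Two-sided exact permutation tests of 3 tumors against 3 gave p = 0.2 for Lalba, 0.4 for Csn2 and 0.5 to 0.7 for the other 6, where the smallest p the design allows is 0.1.

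With anti-PD-1 tumor 1 kept, the shared lower mean depended on IgG tumor 2. Without IgG tumor 2, 2 of the 8 genes remained lower in anti-PD-1, Lalba (log2 fold change -2.06) and Csn2 (-0.27), and the other 6 lay between 0.00 and 0.48. Without both IgG tumor 2 and anti-PD-1 tumor 1, 6 of the 8 were lower. Without IgG tumor 1 the Lalba difference was -3.20 (unadjusted p = 0.0285, adjusted p = 0.221 by limma). Without anti-PD-1 tumor 3, the highest of its group, it was -3.54 (unadjusted p = 0.00647, adjusted p = 0.641 by limma). Without IgG tumor 3, Csn1s1 reached -1.32 with an unadjusted p of 0.0488 (adjusted p = 0.4999 by limma). With all 6 tumors and no block, intervals for all members included differences in both directions. Neither a decrease nor the lack of one was shown.

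**Figure D3:**
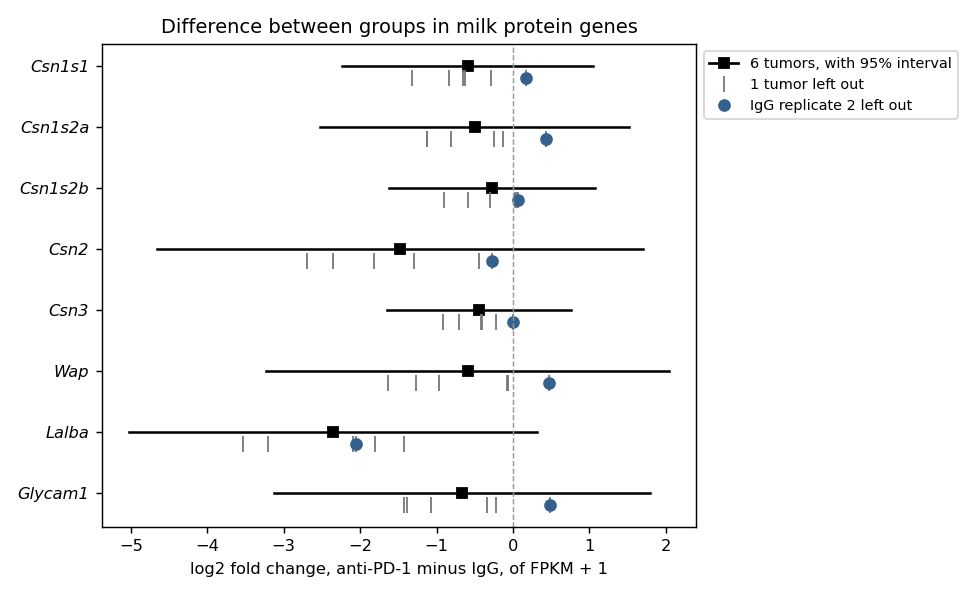
Log2 fold change of anti-PD-1 against IgG (x axis, on FPKM + 1) for each milk protein gene, with squares and bars for the estimate and its 95% interval in limma, ticks for the fits that leave out 1 tumor each, and blue circles for the fit without IgG tumor 2. All 8 intervals cross 0, and without IgG tumor 2 only Csn2 and Lalba stayed below it.

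The tumors highest in most milk protein genes also held transcripts of salivary gland. Bpifa2, a secreted protein of parotid gland, was at 54.1, 3011 and 0.0404 FPKM in the IgG tumors and 1270.0, 0 and 0 FPKM in the anti-PD-1 tumors. Amy1, salivary amylase, was at 21.04, 1037 and 0.412 FPKM and at 259, 0.321 and 0.182 FPKM. Both were high in IgG tumor 2 and anti-PD-1 tumor 1, lower in IgG tumor 1 and near 0 in the other 3 tumors. Of 22 salivary gland genes listed after these values were seen, 13 had the same highest pair of tumors, among them Chia1, Cst10, Smr3a, Klk1 and Dcpp1 to 3 (near-identical copies whose reads may be shared). Another 6 (Car6, Prol1, Egf, Smr2, Aqp5 and Bhlha15) were highest in IgG tumor 3, where Car6 was at 503 FPKM, against 181 FPKM in IgG tumor 2, and Prol1 at 100.1 FPKM, against 6.01 FPKM. Muc19 and Klk1b22 were at 0 in all tumors. The summed level of the list was 706, 7952 and 1765 FPKM in IgG tumors 1, 2 and 3 and 3746, 843 and 1143 FPKM in anti-PD-1 tumors 1, 2 and 3. Aqp5, expressed throughout at 421 to 1098 FPKM, contributed to it in all tumors, and Car6 and Prol1 did so mainly in IgG tumor 3. Smr3a (18.3, 628 and 0.508 FPKM in IgG, 129, 0 and 0.0655 FPKM in anti-PD-1) is the salivary gene nearest the caseins on chromosome 5 (88002549 to 88008534). Of the list, 19 genes passed the filter, 0 were called (8.43% of all tested genes) and the median log2 fold change was -0.84 (0.01 for all tested genes). The part of salivary transcripts in the milk protein values was not tested.

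With IgG tumor 2 and anti-PD-1 tumor 1 left out, a comparison chosen after seeing the data, 2 tumors stood against 2. Of the 8 genes, 6 were then lower in anti-PD-1, among them Lalba at -1.80 (SE 1.63), Csn2 at -1.49 (SE 0.66), Wap at -0.57 and Glycam1 at -0.29 on the log2 scale. Csn1s1 and Csn3 were at 0.10 and 0.04. None had an unadjusted p under 0.05, and the lowest adjusted p was 0.786 by limma. Markers of skeletal muscle also varied between tumors, with a summed level of 181 FPKM in IgG tumor 2 and 94.9 and 195 FPKM in anti-PD-1 tumors 1 and 2, against 8.18 to 10.2 FPKM in the other 3. Acta1 (0 to 49.7 FPKM) and Tnnt3 (0.0569 to 43.0 FPKM) led the list, none of whose 8 genes was called, against 8.43% of all tested genes. Anti-PD-1 tumor 2, the highest in muscle, ranked 3 of 6 for Csn1s1, 4 for Glycam1 and 5 for Csn1s2a, Csn2 and Csn3. It ranked 6 for Csn1s2b, Wap and Lalba. IgG tumor 2 and anti-PD-1 tumor 1, also high in muscle, were the highest pair for 5 of the 8 genes. The part of muscle in the milk protein values was not tested. Markers of skin summed to 2.56 to 4.44 FPKM, led by Scd3 (0.393 to 2.41 FPKM) and Krt10 (0.814 to 1.29 FPKM), and neither of the 2 tested was called.

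**Figure D4:**
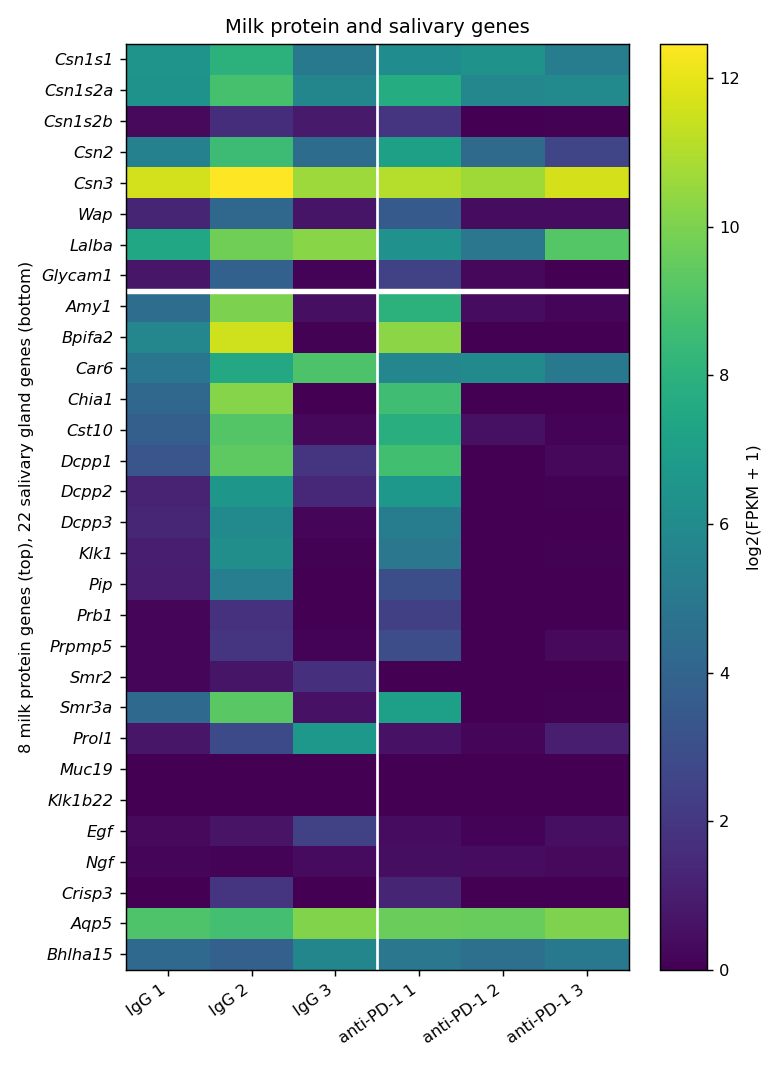
Log2(FPKM + 1) (color) of the 8 milk protein genes (above the white line) and 22 salivary gland genes (below it) in the 6 tumors (columns). Most salivary genes were high in IgG tumor 2 and anti-PD-1 tumor 1, as were Csn1s2a, Csn2, Wap and Glycam1, whereas Lalba was highest in IgG tumors 2 and 3 and Aqp5 was high in all 6.

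Among 1916 protein-coding genes with an SD of at least 0.5 over the tumors, the 10 whose log2(FPKM + 1) followed the mean of the 8 members most closely were Pip, Lao1, Ccn5, Dnase1, Olah, Pdgfd, Adamtsl4, Crisp3, Gm10226 and Cxcl17, with Pearson r from 0.982 to 0.949 over the 6 tumors. Pip, the prolactin-inducible protein of exocrine glands, was at 0.962, 38.9 and 0.0340 FPKM in IgG and 6.95, 0.0343 and 0.0175 FPKM in anti-PD-1 tumors. Lao1, an L-amino acid oxidase, was at 2.86, 21.8 and 1.06 FPKM and at 5.27, 0.0161 and 0 FPKM. Olah, a thioesterase that releases medium-chain fatty acids for milk fat, was at 0.153, 2.71 and 0.161 FPKM and at 0.771, 0.0232 and 0.284 FPKM. All 3 had the same highest pair of tumors as Csn2 and Wap. The 5 genes most like Glycam1 were Pip (r = 0.997), Dnase1, Crisp3, Klk1 and Crisp1 (r = 0.985). Pip, Crisp3 and Klk1 are also in the salivary list, and with 6 tumors these values describe a shared ranking only.

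The pathway that drives milk protein genes was then examined. Of 20 prolactin and Stat5 pathway genes, 17 passed the filter, 5 were lower and 1 was higher in anti-PD-1 tumors by the unadjusted thresholds, where 4.53% and 3.90% of all genes were. The median log2 fold change was -0.18, against 0.01 for all genes. No gene of any list had an adjusted p under 0.05 in limma.

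At the receptor, Prlr was at 7.34, 7.94 and 7.96 FPKM in IgG tumors 1, 2 and 3 and 7.02, 9.18 and 13.6 FPKM in anti-PD-1 tumors 1, 2 and 3 (log2 fold change 0.28, adjusted p = 0.640 by limma). Jak2, the kinase bound to it, was at 11.9 to 18.2 FPKM in IgG and 13.5 to 15.4 FPKM in anti-PD-1 tumors. Neither met the thresholds.

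Stat5a, the main Stat of milk gene induction, was at 10.1, 18.5 and 18.9 FPKM in IgG tumors 1, 2 and 3 and 9.08, 5.11 and 7.92 FPKM in anti-PD-1 tumors 1, 2 and 3. Every anti-PD-1 tumor was below every IgG tumor (log2 fold change -0.99, SE 0.29, unadjusted p = 0.0114, adjusted p = 0.346 by limma). Stat5b, its paralog next to it on the chromosome, was at 17.2, 26.8 and 29.7 FPKM and at 14.7, 12.8 and 16.2 FPKM, also without overlap (log2 fold change -0.68, SE 0.23, adjusted p = 0.355 by limma). Stat5a met the thresholds whichever tumor was left out (log2 fold change -1.27 to -0.78) and at -1.01 without IgG tumor 2 and anti-PD-1 tumor 1. Stat5b did not without IgG tumor 2 (-0.60), IgG tumor 3 (-0.53) or anti-PD-1 tumor 2 (-0.60). The order of the tumors by Stat5a was not that of the caseins, since anti-PD-1 tumor 1, among the highest for Csn2 and Wap, had 9.08 FPKM, and IgG tumor 3, lowest for Csn3, had 18.9 FPKM. For Lalba, as for Stat5a, IgG tumor 3 was highest, IgG tumor 2 next and anti-PD-1 tumor 2 lowest, though the tumors between them differed in order. A link of Stat5a to the milk protein values was not tested.

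Among the transcription factors that act with Stat5, Nfib, an NFI factor of milk genes, was at 31.8, 56.3 and 34.2 FPKM in IgG and 24.3, 20.9 and 18.8 FPKM in anti-PD-1 tumors (log2 fold change -0.86, SE 0.24, adjusted p = 0.344 by limma). Gata3, the regulator of luminal identity, was at 37.7, 47.8 and 57.0 FPKM and at 29.3, 28.8 and 30.6 FPKM (log2 fold change -0.65, SE 0.18, adjusted p = 0.344 by limma). In both genes the groups did not overlap. Id2, needed for alveolar development, was at 113, 226 and 152 FPKM and at 114, 91.6 and 80.8 FPKM (log2 fold change -0.73, adjusted p = 0.380 by limma), with overlap. Nfib met the thresholds without each tumor in turn, Gata3 did not without IgG tumor 3 (-0.51), and Id2 did not without IgG tumor 2 (-0.47), IgG tumor 3 (-0.75), anti-PD-1 tumor 2 (-0.71) or anti-PD-1 tumor 3 (-0.62). Nfib lies on chromosome 4, where 83.6% of the tested genes had a lower mean in the anti-PD-1 group (median log2 fold change -0.40). Elf5, the alveolar master regulator, was at 38.2 to 74.1 FPKM in IgG and 29.0 to 44.0 FPKM in anti-PD-1 tumors and missed the threshold (log2 fold change -0.60, adjusted p = 0.433 by limma). Cebpb (180 to 288 FPKM) and the glucocorticoid receptor gene Nr3c1 (14.4 to 22.8 FPKM) overlapped between groups.

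Cish and Socs2, feedback genes that Stat5 is known to induce, did not meet the thresholds, which 8.43% of all tested genes met. Socs1 of the same pathway list did not meet them either (log2 fold change -0.18, adjusted p = 0.735 by limma). Cish was at 3.01 to 5.64 FPKM in IgG and 2.80 to 3.79 FPKM in anti-PD-1 tumors, and Socs2 at 43.5 to 60.6 FPKM and 46.4 to 53.9 FPKM, with log2 fold changes of -0.31 and -0.11 (adjusted p = 0.599 and 0.827 by limma). Socs3, another inhibitor of Jak signaling, named after its values were seen, was at 6.17, 3.83 and 1.52 FPKM in IgG and 9.21, 4.66 and 5.26 FPKM in anti-PD-1 tumors, with a log2 fold change of 0.68 in the other direction (SE 0.41, adjusted p = 0.521 by limma). Cav1, a membrane scaffold known to restrain Jak2 in the gland, was the higher gene of the list, at 13.2, 6.26 and 6.02 FPKM in IgG and 14.9, 27.8 and 14.6 FPKM in anti-PD-1 tumors (log2 fold change 1.10, SE 0.35, adjusted p = 0.355 by limma). The groups did not overlap. Cav1 did not meet the thresholds without IgG tumor 2 (0.95), IgG tumor 3 (0.92) or anti-PD-1 tumor 2 (0.81). Leaving out IgG tumor 2 or IgG tumor 3 reduced the lower genes of this list to 3 and the higher to 0, and leaving out IgG tumor 2 together with anti-PD-1 tumor 1 left 2 lower. Over all tested genes the lower calls also declined, from 683 to 375 without IgG tumor 2, 564 without IgG tumor 3 and 402 without IgG tumor 2 and anti-PD-1 tumor 1.

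**Figure D5:**
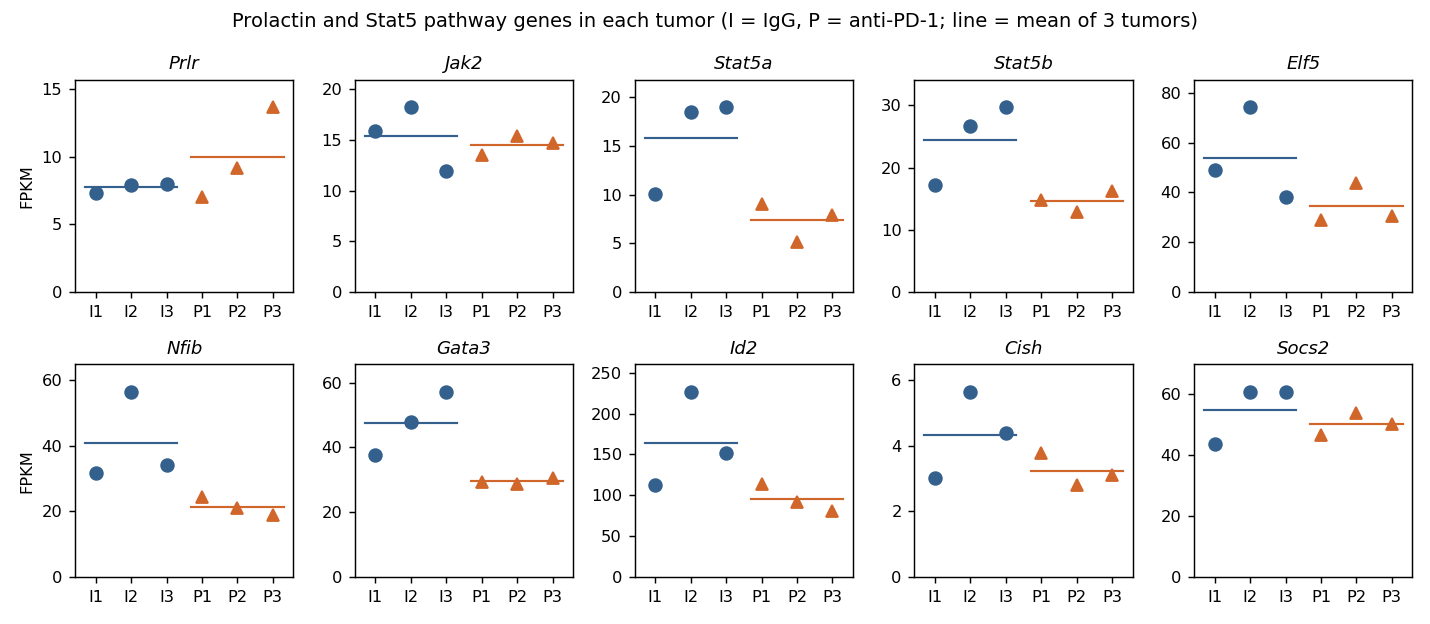
FPKM (y axis, from 0, with its own range in each panel) of 10 prolactin and Stat5 pathway genes in IgG tumors 1 to 3 (blue circles) and anti-PD-1 tumors 1 to 3 (orange triangles), with the mean of each group as a line. Stat5a, Stat5b, Nfib and Gata3 lie lower in every anti-PD-1 tumor than in every IgG tumor, as 8.75% of all tested genes do, whereas Prlr, Jak2, Cish and Socs2 overlap. Cav1, higher in every anti-PD-1 tumor, is among the genes of the list that are not drawn.

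Other products of the secretory cell were read beside the milk proteins. Of 10 milk fat globule genes, 3 were lower by the unadjusted thresholds and none higher (4.53% and 3.90% of all tested genes), with a median log2 fold change of 0.07. Btn1a1, butyrophilin of the globule membrane, was at 20.4, 111 and 23.3 FPKM in IgG and 17.1, 4.17 and 9.51 FPKM in anti-PD-1 tumors (log2 fold change -1.96, SE 0.70, adjusted p = 0.370 by limma). Muc15, a membrane mucin, was at 85.6, 366 and 110 FPKM and at 43.8, 25.6 and 22.6 FPKM (log2 fold change -2.33, SE 0.54, adjusted p = 0.344 by limma). In both genes IgG tumor 2 was highest, as for 6 of the milk protein genes, and no anti-PD-1 tumor reached the lowest IgG tumor. Plin2, the coat protein of lipid droplets on chromosome 4, was at 107, 173 and 80.5 FPKM and at 51.9, 63.9 and 59.7 FPKM (log2 fold change -0.96, SE 0.28, adjusted p = 0.346 by limma). Muc15 and Plin2 met the thresholds without each tumor in turn. Btn1a1 did not without IgG tumor 2 (-1.20), anti-PD-1 tumor 2 (-1.49) or anti-PD-1 tumor 3 (-2.003), and Plin2 did not without IgG tumor 2 and anti-PD-1 tumor 1 together (-0.58). Rab18, a lipid droplet GTPase, had the highest mean FPKM of the list and did not overlap in the other direction (65.6 to 110 FPKM in IgG, 112 to 143 FPKM in anti-PD-1, log2 fold change 0.44, adjusted p = 0.488 by limma).

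Of 14 tested genes for lactose synthesis and calcium transport, 2 were higher and 1 lower (3.90% and 4.53% of all tested genes), with a median log2 fold change of 0.12. B4galt1, the catalytic partner of alpha-lactalbumin in lactose synthase, was at 47.3 to 67.1 FPKM in IgG and 40.4 to 63.4 FPKM in anti-PD-1 tumors (log2 fold change -0.26, adjusted p = 0.657 by limma), so that its levels did not follow the 40.8-fold range of Lalba. Hk1, a hexokinase, overlapped between groups at 55.0 to 111 FPKM. Hk2, another hexokinase, was at 3.69 to 7.02 FPKM in IgG and 7.61 to 12.9 FPKM in anti-PD-1 tumors (log2 fold change 0.82), and Orai1, a calcium channel, at 24.2 to 37.8 and 43.4 to 48.2 FPKM (log2 fold change 0.59). Atp2c1, a Golgi calcium pump, was at 13.4 to 19.8 FPKM in IgG and 8.69 to 11.3 FPKM in anti-PD-1 tumors (log2 fold change -0.79). It lies on chromosome 9, where 82.3% of tested genes were lower, and it met the thresholds without each tumor in turn. Hk2 did not without IgG tumor 2 (0.60), anti-PD-1 tumor 2 (0.76) or anti-PD-1 tumor 3 (0.68), and Orai1 did not without IgG tumor 3 (0.43), anti-PD-1 tumor 1 (0.58) or anti-PD-1 tumor 3 (0.55). The adjusted p-values of Hk2, Orai1 and Atp2c1 in limma were 0.344 to 0.355. Without anti-PD-1 tumor 3, 1 gene of this list was called, and the calls over all tested genes also declined, from 1270 to 936.

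Of 13 tested genes for other secreted milk components, 1 was higher and none lower, a share near the 8.43% of all tested genes called in either direction, with a median log2 fold change of 0.18. Lcn2, an iron-binding defence protein, was at 1078 to 3312 FPKM in IgG and 2792 to 6459 FPKM in anti-PD-1 tumors (log2 fold change 1.08, adjusted p = 0.434 by limma), and Spp1, osteopontin, at 233 to 3676 and 2195 to 3417 FPKM. Both overlapped between groups. Anti-PD-1 tumor 2, the highest for Lcn2, was the lowest for Lalba and had the smallest share of reads on milk protein genes. Pthlh, a calcium-mobilizing hormone of the lactating gland, was at 1.06, 0.102 and 0.1003 FPKM in IgG tumors 1, 2 and 3 and 4.98, 8.88 and 4.71 FPKM in anti-PD-1 tumors 1, 2 and 3. Every anti-PD-1 tumor was above every IgG tumor (log2 fold change 2.36, SE 0.33, unadjusted p = 0.000166, adjusted p = 0.344 by limma), and the thresholds were met without each tumor in turn (2.11 to 2.66). At this low level in IgG tumors the size depended on the scale, with 4.06 when 0.1 was added to the FPKM and 4.66 with voom.

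The epithelial lists are read against the 3.90% of all tested genes that were higher and the 4.53% that were lower. Of 10 luminal genes (median log2 fold change 0.40), Krt7, a keratin of simple epithelium, was higher (8.60 to 23.2 FPKM in IgG, 24.8 to 43.5 FPKM in anti-PD-1, log2 fold change 1.07) and Krt19 was lower (7.77, 77.3 and 7.39 FPKM against 4.08, 5.23 and 1.69 FPKM, log2 fold change -2.03). Krt7, Krt8 and Krt18 lie on chromosome 15, where 28.9% of the tested genes had a lower mean in the anti-PD-1 group (median log2 fold change 0.17). Krt19 shared its highest tumor, IgG tumor 2, with 6 of the milk protein genes. With all tumors kept, the Krt19 call was lost under some alternatives, such as quantile normalization and voom (unadjusted p = 0.0503 and 0.0682 by limma). Epcam and Krt18 (678 to 1377 FPKM) had the highest means, and Epcam was higher in every anti-PD-1 tumor without meeting the thresholds (log2 fold change 0.43, adjusted p = 0.462 by limma). Of 8 alveolar and progenitor genes, Csn3 among them (median -0.13), only Kit, the receptor of luminal progenitors, was lower (59.4, 105 and 101 FPKM against 55.3, 41.4 and 45.4 FPKM, log2 fold change -0.85), and it was so without each tumor in turn. None of 7 tested hormone-sensing genes was called (median -0.12, 4 lower and 3 higher in mean), with Ly6a at 12.6 to 42.7 FPKM and Prom1 at 8.999 to 38.3 FPKM. Foxa1 (0.339 to 2.11 against 0.0117 to 0.320 FPKM, log2 fold change -0.72) and Cited1 (0.740 to 1.27 against 0.406 to 0.422 FPKM, -0.49) were lower without overlap, as were 8.75% of all tested genes. Both were low and were named after their values were seen (adjusted p = 0.451 and 0.397 by limma). Of 9 tested myoepithelial genes (median -0.35), Mylk was higher (1.26 to 1.86 against 1.77 to 6.40 FPKM, log2 fold change 0.90) and Krt17 lower (0.523 to 1.05 against 0.0270 to 0.377 FPKM, log2 fold change -0.66, but -1.98 with 0.1 added to the FPKM and -2.73 with voom), while Acta2 (10.2 to 36.8 FPKM) and Oxtr (0.822 to 5.73 FPKM), the 2 highest, overlapped. For Krt7, Krt19, Kit, Mylk and Krt17 the adjusted p-values in limma were 0.346 to 0.404. Of the 6 leave-one-out fits, the thresholds were met in 4 for Krt7, 3 for Krt19, 2 for Krt17 and 1 for Mylk. Krt7 did not meet them without anti-PD-1 tumor 1 (1.06) or 2 (0.88) and was at 0.69 without IgG tumor 3, Krt19 without any 1 of the anti-PD-1 tumors (-2.28 to -1.67; it was -0.96 without IgG tumor 2, still past them), Krt17 without IgG tumor 2 or 3 or anti-PD-1 tumor 2 or 3 (-0.62 to -0.57), and Mylk without any IgG tumor or anti-PD-1 tumor 2 or 3 (0.56 to 0.99).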

How the data were processed

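RNAseq values of 3 IgG and 3 anti-PD-1 tumors were used, grouped by the sample labels. According to the submitters' processing notes and the methods of the study, the authors used FastQC 0.11.9, Cutadapt 3.5, Bowtie2 2.4.1, RSEM 1.3.1 and DESeq2 1.36.0 on mm10 (Ensembl release 99). Each of the 6 tables deposited by the authors holds FPKM for 54532 Ensembl genes, and how the FPKM was made is not given in the sources used here. FPKM times merged exon length gave whole reads (within 0.1) for 97.0% to 97.3% of detected values. Coordinates and lengths are from GENCODE release M21 (GRCm38), which named 54495 IDs.

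The deposited FPKM, divided by a median-of-ratios factor per tumor, was analysed as log2(FPKM + 1), a scale that understates the change of low genes. The 15069 genes averaging 0.5 FPKM or more entered limma 3.58.1 under R 4.3.3 (eBayes with trend, two-sided, Benjamini-Hochberg adjustment over all of them). A gene was called at an unadjusted p under 0.05 and at least 1.5-fold. The labels number the tumors but do not tie them to animals, so p-values measure the spread between these samples, and no 2 held identical values. On simulated reads of 14231 genes for this comparison, the adjusted p fell under 0.05 in limma for 194 of 197 changed genes and for 21 unchanged ones. The planted changes were large and lay only in genes with many reads, and all genes were given the same dispersion. The milk protein genes varied far more than most genes, so this recovery does not measure the power to detect a change in them. The members, lists and tests were chosen with earlier results of these data known. Named genes were the members, the 2 highest and every called gene of each list, set pathway genes, and those most similar to the members. The salivary list was written after the values were seen, as were the genes named from it. The alternatives were 0.1 added to the FPKM, no filter, a stricter filter at a mean of 2 FPKM, no median-of-ratios factors, quantile normalization, no trend, the replicate number as a block, voom on recovered reads and leaving out each tumor. Single values of some genes of the lymph node list are not reported here. Python 3.11.15 was used for tables and figures.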

Additional observations from a re-analysis of the deposited data

How the results depend on the processing

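For the 8 milk protein genes, 119 values under alternatives were computed, of which 105 kept their direction and their side of the thresholds, 4 passed them and 10 changed direction. Over the fits that left out 1 tumor, the log2 fold change ran from -1.32 to 0.17 for Csn1s1, -1.13 to 0.43 for Csn1s2a, -0.90 to 0.061 for Csn1s2b, -2.70 to -0.27 for Csn2, -0.91 to 0.0041 for Csn3, -1.63 to 0.47 for Wap, -3.54 to -1.43 for Lalba and -1.43 to 0.48 for Glycam1, and each upper end above 0 came without IgG replicate 2. Csn1s2b was also above 0 without anti-PD-1 replicate 2 (0.052) or 3 (0.025), and Csn1s1 (0.10) and Csn3 (0.037) were so without IgG replicate 2 and anti-PD-1 replicate 1 together. With 0.1 added to the FPKM and with voom, Csn1s2b (-1.31 and -2.55), Wap (-1.07 and -1.15), Glycam1 (-1.20 and -1.63), Pthlh (4.06 and 4.66) and Krt17 (-1.98 and -2.73) moved by over 1.5 times, since adding 1 compresses low FPKM. The number of members called was 0 in the comparison of 6 tumors and 0 to 1 when a tumor was left out: Lalba without IgG replicate 1 or anti-PD-1 replicate 3, and Csn1s1 without IgG replicate 3. Over all tested genes 1270 were called, and 741 (without IgG replicate 2) to 2234 (without IgG replicate 1) with a tumor left out. The lists held 18 called genes, and 12 to 25 with a tumor left out. The cause of these changes was not tested. With the replicate number as a block, 1 member was called (Lalba, unadjusted p = 0.0251 and adjusted p = 0.411 by limma) and 1334 genes in all. The labels do not say that the numbers pair the tumors. Deviations of tumors with the same number correlated at r = -0.164, 0.00508 and 0.194, and IgG replicate 2 correlated best with anti-PD-1 replicate 1 (r = 0.235). With so few tumors these values cannot settle whether there was a pairing. Of 269 values for the 18 called list genes, 218 kept their call, 51 lost it and 0 changed direction. Apart from left-out tumors and the block, which ended those of Btn1a1, Id2 and Krt17, calls were lost for Krt19 (no filter, quantile normalization, no trend and voom), Orai1 (no median-of-ratios factors and quantile normalization) and Mylk (no filter). With a mean FPKM of at least 2, Csn1s2b was not tested. Depth limits Csn1s2b, Wap and Glycam1, which had 1 to 8 reads in some tumors.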

Other observations

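The pattern of Lalba over the tumors was shared by other genes, which were chosen after their values were seen. Among 1916 variable protein-coding genes, Fndc10 (r = 0.981), Lrrc75b, Parm1, Kank4 and Igfals (r = 0.971) followed it most closely over the 6 tumors. Lrrc75b was at 5.81, 12.0 and 19.2 FPKM in IgG tumors 1, 2 and 3 and 3.20, 1.495 and 7.67 FPKM in anti-PD-1 tumors 1, 2 and 3. Igfals, the acid-labile subunit of the IGF complex, was at 25.9, 39.4 and 56.0 FPKM and at 16.2, 7.69 and 30.2 FPKM. As for Lalba, IgG tumor 3 was highest and anti-PD-1 tumor 2 lowest in all 5.

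Members of the salivary list differed in their highest tumor, and some peaked in IgG tumor 3, where Bpifa2 and Amy1 were near 0. Prol1 was at 0.697, 6.01 and 100.1 FPKM in the IgG tumors and 0.503, 0.141 and 1.04 FPKM in the anti-PD-1 tumors, and Car6, a secreted carbonic anhydrase, at 28.5, 181 and 503 FPKM and at 53.2, 58.5 and 32.3 FPKM. Both were named after their values were seen. Of the 3 genes of the casein region outside the caseins that passed the filter, Smr3a, Odam and Sult1d1, none met the thresholds, which 8.43% of all tested genes met. Odam was at 0.458, 5.50 and 7.79 FPKM in IgG and 10.4, 0.774 and 1.64 FPKM in anti-PD-1 tumors. Ltf, the iron-binding lactoferrin of milk, was at 56.4, 946 and 19.6 FPKM in IgG and 56.2, 115 and 14.2 FPKM in anti-PD-1 tumors, also highest in IgG tumor 2 (log2 fold change -1.16, SE 1.39, adjusted p = 0.761 by limma).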
